A study of Mus musculus with 7 samples.

Results

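The genes described here encode water channels, sodium channel subunits, chloride transporters and a sodium pump subunit of lung epithelium and vessels. They are Aqp1, Aqp4, Aqp5, Scnn1a, Scnn1b, Scnn1g, Cftr, Atp1b1 and Slc26a4, taken by symbol from a table of read counts for 28828 entries, and each of the 9 was found once. The table covers mouse lung RNA in 3 libraries from mice with a knockout (KO) of Scgb3a2, which encodes an airway secretoglobin, and 4 libraries from wild type (WT) mice. All animals were C57BL/6, the material was total RNA of lung, and no treatment is named. The sources used here do not give the allele, or the sex and age of the mice. They do not say either that libraries are from separate mice, so p-values speak only of the spread among libraries, which may be technical. A library is called by its genotype and label number (KO3, KO4, KO5, WT2, WT3, WT4 and WT6).

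The fluid that lines airways and alveoli is set by salt transport, with water following through aquaporins. The epithelial sodium channel (ENaC), built of the alpha, beta and gamma subunits that Scnn1a, Scnn1b and Scnn1g encode, lets sodium enter the cell from the lumen, and the sodium pump (Na,K-ATPase) moves it out on the opposite side. Cftr, the chloride channel that is defective in cystic fibrosis, and Slc26a4 (pendrin), an exchanger of chloride for bicarbonate and other anions, work in the apical membrane of airway cells and carry anions towards the lumen or exchange them there.

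Totals ranged from 13071262 to 16480006 counts per library, and Scgb3a2 had 19, 19 and 37 counts in KO3, KO4 and KO5, against 4204, 4170, 2636 and 4165 counts in WT2, WT3, WT4 and WT6. The alveolar markers that define lung were abundant in every library, with Sftpc at 5897 to 8559 counts-per-million (CPM, scaled by the trimmed mean of M-values, TMM) in KO libraries and 6836 to 8771 CPM in WT libraries. KO5 and WT6 stood apart from the other 5 libraries on the leading principal component of log2 CPM, which held 37.5% of the variance, with 49.98 for KO5 and 36.3 for WT6 against -30.5 to -5.59. The results below that rest on this pair are therefore given also without it.

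Promoter sequences are shown for 4 genes to set beside their levels in KO5 and WT6: Scnn1g and Scnn1b, which were lowest there, Atp1b1, which was low there and in WT2, and Aqp1, which was highest there. Each run is the RefSeq window of build GRCm38.p6 from 250 bases before to 50 bases after the start site, written 5′ to 3′ on the gene's own strand, with matches to the searched motifs in capitals. The windows lie at chr7:121734229-121734528 (plus strand) for Scnn1g, chr7:121864788-121865087 (plus strand) for Scnn1b, chr1:164458306-164458605 (minus strand) for Atp1b1 and chr6:55336049-55336348 (plus strand) for Aqp1.
Scnn1g: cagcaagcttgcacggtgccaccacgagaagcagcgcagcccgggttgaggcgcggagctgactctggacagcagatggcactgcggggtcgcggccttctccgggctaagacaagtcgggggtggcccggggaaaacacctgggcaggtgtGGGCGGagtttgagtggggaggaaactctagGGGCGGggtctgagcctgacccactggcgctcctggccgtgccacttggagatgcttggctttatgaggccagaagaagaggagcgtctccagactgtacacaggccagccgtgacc
Scnn1b: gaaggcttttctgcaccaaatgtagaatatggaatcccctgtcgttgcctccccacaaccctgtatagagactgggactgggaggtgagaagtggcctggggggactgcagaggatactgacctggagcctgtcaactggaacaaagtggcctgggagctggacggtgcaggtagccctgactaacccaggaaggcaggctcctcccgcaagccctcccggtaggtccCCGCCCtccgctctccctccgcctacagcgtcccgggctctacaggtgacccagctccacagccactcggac
Atp1b1: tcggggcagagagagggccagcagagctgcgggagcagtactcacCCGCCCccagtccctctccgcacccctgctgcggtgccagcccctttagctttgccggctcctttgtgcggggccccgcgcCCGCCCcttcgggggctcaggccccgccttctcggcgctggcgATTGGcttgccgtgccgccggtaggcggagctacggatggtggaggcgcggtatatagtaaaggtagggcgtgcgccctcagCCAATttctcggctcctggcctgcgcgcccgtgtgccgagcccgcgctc
Aqp1: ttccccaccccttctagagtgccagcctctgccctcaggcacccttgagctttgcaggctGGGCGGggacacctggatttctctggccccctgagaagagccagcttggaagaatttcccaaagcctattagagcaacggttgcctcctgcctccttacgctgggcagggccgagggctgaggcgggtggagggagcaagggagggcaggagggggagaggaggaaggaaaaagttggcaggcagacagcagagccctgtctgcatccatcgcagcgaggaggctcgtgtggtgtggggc

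Of the 5 motifs searched on both strands, the GC box with the letters GGGCGG was found in all 4 windows, with 2 matches in Scnn1g, 1 in Scnn1b, 2 in Atp1b1 and 1 in Aqp1. It is held by 35.7% of the 32851 RefSeq windows of this length. The CCAAT box, spelled CCAAT, was found only in Atp1b1, where it matched 2 times, and it is held by 37.4% of all windows. The TATA box with the letters TATAAA (13.6% of all windows), the half-site of the glucocorticoid receptor with the letters TGTTCT (19.0%) and the E box with the letters CACGTG (7.2%) had no match in these 4 windows. No match overlapped another. GC content was 64.7%, 61.7%, 71.0% and 62.7% in Scnn1g, Scnn1b, Atp1b1 and Aqp1, against a median of 52.7% over all windows.

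None of the 9 genes differed between KO and WT lung beyond the spread between libraries. All 9 passed the filter on low counts, and edgeR's quasi-likelihood test, adjusted by Benjamini-Hochberg over 19832 genes, called 0 of them, with an adjusted p of 0.9998 for each. Over all genes tested, 7 were called (0.0353%). DESeq2 also called 0 of the 9. An unadjusted p below 0.05 in edgeR was found for 0 of the 9 genes, against 569 genes (2.87%) of all tested. No gene had KO values that lay all above or all below its WT values, a pattern that 3.72% of all genes showed. The log2 fold changes of KO over WT were positive for 4 genes and negative for 5, with a median of -0.0067, and the median over all genes was -0.0068. For 8 of the 9 genes the point estimate lay between -0.09 and 0.12 on the log2 scale, and for Slc26a4 it was 0.54. The 95% intervals given below, the widest of them for Aqp4 and Slc26a4, leave room for changes in either direction.

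**Figure D1:**
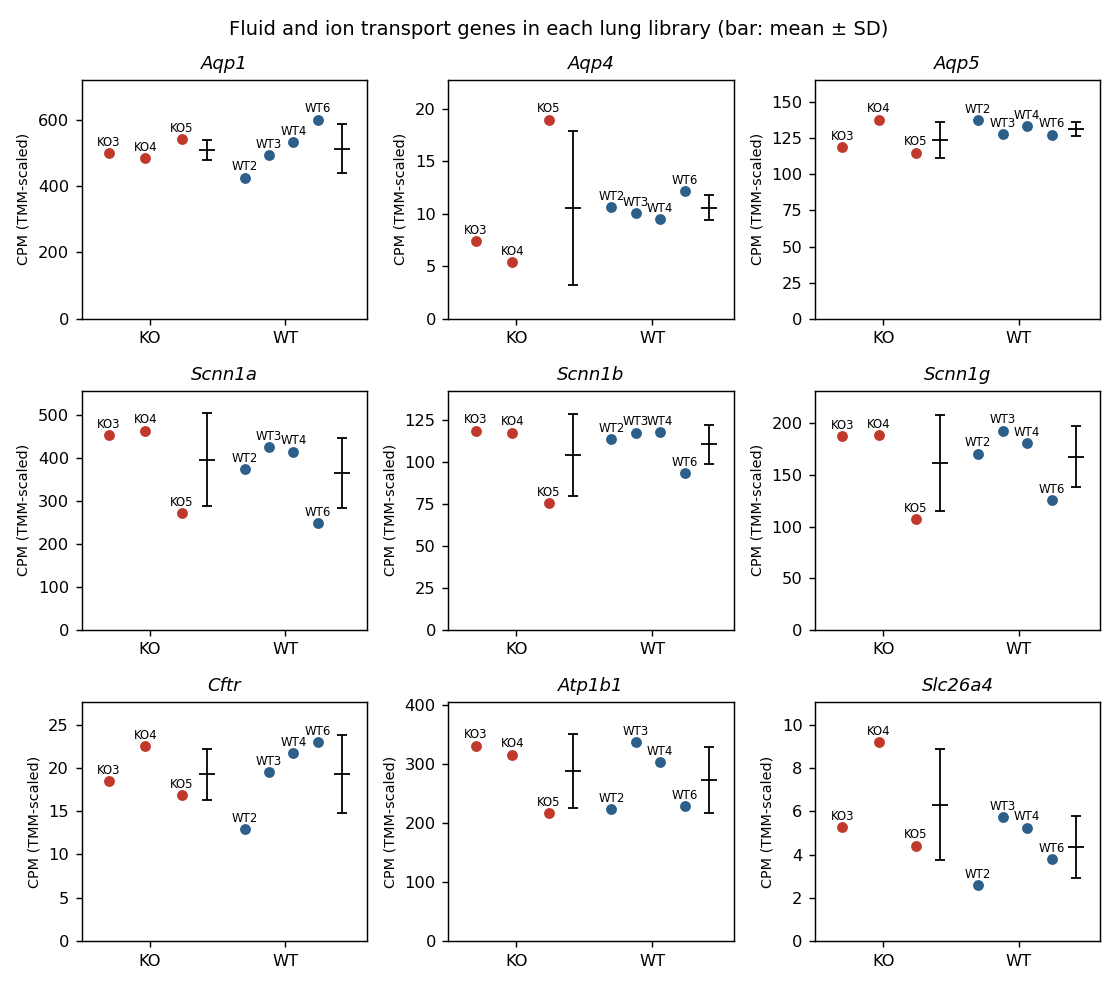
CPM (TMM-scaled, linear axes from 0) of the 9 genes, 1 point per library, with KO libraries in red at the left and WT libraries in blue at the right of each panel, and the bar giving mean ± SD. The KO and WT points overlap in every panel, and KO5 and WT6 hold the lowest values of Scnn1a, Scnn1b and Scnn1g.

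**Figure D2:**
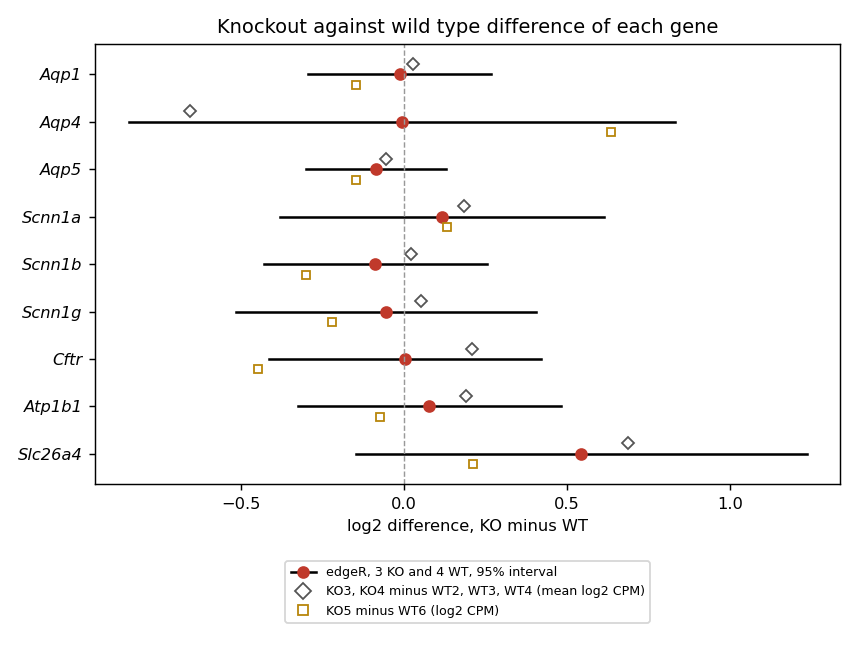
Log2 difference of KO over WT for each gene: the filled point and line give edgeR's estimate and its 95% interval from 3 KO and 4 WT libraries, the open diamond the difference of mean log2 CPM among the 5 other libraries, and the open square KO5 minus WT6. Every interval spans 0, and for Aqp4 the diamond (-0.66) and the square (0.64) lie on opposite sides.

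To compare levels between genes, counts were divided by the length of each gene's exons and scaled to transcripts-per-million (TPM). Aqp1 stood highest, at 596 ± 47.2 TPM in KO lung (SD, n = 3) and 627.5 ± 111.7 TPM in WT lung (SD, n = 4), above every other gene of the group in each library. Atp1b1 and Scnn1a followed at like levels, with 286.8 ± 56.5 and 293.9 ± 76.2 TPM in KO lung and 281.6 ± 43.8 and 280.5 ± 50.2 TPM in WT lung. Scnn1g, Aqp5 and Scnn1b formed the next step, at 164.9, 146.7 and 121.0 TPM in KO lung and 177.8, 162.1 and 133.9 TPM in WT lung. Cftr, Aqp4 and Slc26a4 were far lower, at 7.62, 5.27 and 6.24 TPM in KO lung and 7.94, 5.46 and 4.42 TPM in WT lung.

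In the order of WT means, the neighbours Atp1b1 and Scnn1a, Scnn1g and Aqp5, Cftr and Aqp4, and Aqp4 and Slc26a4 had overlapping WT ranges, while Aqp1 against Atp1b1, Scnn1a against Scnn1g, Aqp5 against Scnn1b, and Scnn1b against Cftr did not. With the longest transcript in place of all exons as the length, Aqp5 (177.2 TPM in KO lung and 194.2 TPM in WT lung) had a higher mean than Scnn1g (137.7 TPM in KO lung and 147.4 TPM in WT lung), so the order of this pair depends on the length used.

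**Figure D3:**
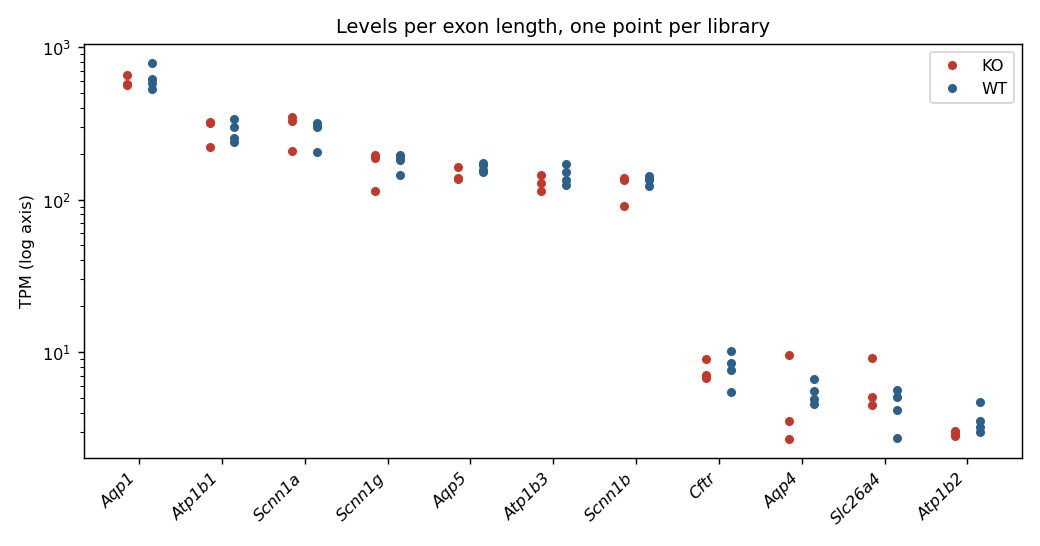
TPM on a log axis for the 9 genes and 2 further sodium pump subunits, 1 point per library, KO in red left of WT in blue, ordered by the WT mean. Aqp1 lies at 532 to 788 TPM in WT libraries, whereas Cftr, Aqp4 and Slc26a4 lie at 2.69 to 10.2 TPM over all libraries.

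Among the water channels, Aqp1, the aquaporin of microvascular endothelium and red cells, made up 73.9% to 80.6% of the summed TPM of 10 measured aquaporins in each library. Aqp5, the water channel of the apical membrane of alveolar type 1 cells and of gland cells, made up 17.2% to 24.1%, and Aqp4, found in the basolateral membrane of airway epithelium, made up 0.362% to 1.18%. Genotype did not separate these shares, since the lowest and the highest share of Aqp1 were both in WT libraries (WT2 and WT6).

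Aqp1 (chromosome 6, 55336432 to 55348555, plus strand, GRCm38) had 499.7, 484.4 and 542.5 CPM in KO3, KO4 and KO5, against 426.0, 495.3, 533.2 and 601.7 CPM in WT2, WT3, WT4 and WT6. The KO values lay inside the WT range. The log2 fold change was -0.01 ± 0.13 (SE), with a 95% interval from -0.29 to 0.27, and p was 0.971 in an exact permutation test over the libraries (two-sided, log2 CPM). The summed level of 9 markers of microvascular endothelium did not follow Aqp1, with 2958 CPM in KO5 and 3503 CPM in WT6 against 3433 to 4011 CPM in the other libraries, and neither did 7 red cell genes, with 1646 CPM in KO5 and 1502 CPM in WT6 against 1483 to 1907 CPM. In bulk tissue, a change in the number of cells of a type and a change in RNA per cell cannot be told apart, here and for all genes below.

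Aqp5 (chromosome 15, 99590782 to 99594829, plus strand) was the steadiest of the group. It had 118.8, 138.0 and 115.1 CPM in KO3, KO4 and KO5, against 137.7, 127.9, 133.6 and 127.5 CPM in WT2, WT3, WT4 and WT6. KO3 and KO5 lay below all WT libraries and KO4 above them. The highest library was 1.199 times the lowest, and the log2 fold change was -0.09 ± 0.10 (SE), with a 95% interval of -0.30 to 0.13.

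Aqp4 (chromosome 18, 15389496 to 15410982, minus strand, 28.4 Mb from Scgb3a2 on the same chromosome) had equal group means and unequal spread. It had 109, 85 and 262 counts in KO3, KO4 and KO5, which were 7.37, 5.41 and 18.97 CPM, against 10.6, 10.1, 9.47 and 12.2 CPM in WT2, WT3, WT4 and WT6. KO3 and KO4 were thus lower and KO5 higher than all WT libraries. The means were 10.6 ± 7.33 CPM in KO lung (SD, n = 3) and 10.6 ± 1.15 CPM in WT lung (SD, n = 4), with a 95% interval of the log2 fold change from -0.85 to 0.83. Without KO5 the log2 fold change was -0.72 (adjusted p = 0.973, edgeR), and among the 5 libraries without KO5 and WT6 it was -0.65 (adjusted p = 0.9998, edgeR). In KO5 the summed level of 8 leukocyte markers was also the highest of all libraries, at 644.4 CPM against 152.4 to 298.6 CPM elsewhere. Jchain alone gave 313.1 CPM of this sum in KO5, against 5.70 to 72.9 CPM elsewhere. Ptprc gave 236.1 CPM in KO5, against 108.2 to 176 CPM elsewhere. The summed level of 10 goblet cell markers was highest in KO5 too, at 765.3 CPM against 228.1 to 481.4 CPM. The part of either list in the level of Aqp4 was not tested.

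The ENaC subunits were high in 5 libraries and low in KO5 and WT6, in both genotypes. Scnn1a (chromosome 6, 125320659 to 125344943, plus strand), the pore-forming alpha subunit, had 454.1, 463.8 and 271.2 CPM in KO3, KO4 and KO5, against 373.7, 425.9, 415.2 and 247.7 CPM in WT2, WT3, WT4 and WT6. KO5 held the lowest KO value and WT6 the lowest WT value, each well below the other libraries of its genotype. The log2 fold change was 0.12 ± 0.22 (SE), with a 95% interval of -0.38 to 0.61.

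Scnn1b and Scnn1g, the beta and gamma subunits, are neighbours on the plus strand of chromosome 7, at 121865038 to 121918514 and at 121734479 to 121768475, with 96.6 kb between them. Scnn1g had 187.5, 188.3 and 107.4 CPM in KO3, KO4 and KO5, against 170.7, 192.8, 181.0 and 125.2 CPM in WT2, WT3, WT4 and WT6. Scnn1b had 118.7, 117.5 and 75.7 CPM in KO3, KO4 and KO5, against 113.9, 117.6, 117.7 and 93.3 CPM in WT2, WT3, WT4 and WT6. In these neighbours, too, KO5 and WT6 were the lowest libraries, and the groups overlapped. The log2 fold change was -0.06 ± 0.21 (SE, 95% interval -0.52 to 0.41) for Scnn1g and -0.09 ± 0.16 (SE, 95% interval -0.43 to 0.25) for Scnn1b.

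Relative to each gene's mean over the 7 libraries, Scnn1a stood at 0.716 in KO5 and 0.654 in WT6, Scnn1g at 0.652 in KO5 and 0.760 in WT6, and Scnn1b at 0.703 in KO5 and 0.866 in WT6. The other 5 libraries lay between 0.986 and 1.22 for all 3 subunits. The summed level of 11 alveolar type 1 cell markers, a cell type that carries ENaC, was also lowest in these libraries. It was 0.799 in KO5 and 0.884 in WT6, against 1.02 to 1.09 elsewhere. That of 8 club cell markers was 0.683 in KO5 and 0.805 in WT6, against 1.01 to 1.16 elsewhere. Not every epithelial list was low in both libraries. The alveolar type 2 list was lowest in KO5 (0.834), but its level in WT6 (0.959) lay above that in WT2 (0.894). The ionocyte list was lowest in KO5 (0.912) but stood at 1.01 in WT6. The ciliated cell list was lowest in KO4 (0.859) and stood at 1.04 in WT6. In both libraries Scnn1a and Scnn1g lay further below their mean than the alveolar type 1 list did. The club cell list lay below Scnn1a and Scnn1b but above Scnn1g in KO5. In WT6 the club cell list lay below Scnn1b but above Scnn1a and Scnn1g. Most of this list's sum was 1 gene, Scgb1a1. It gave 6768 of 11840 CPM in KO5 and 8380 of 13950 CPM in WT6, and had 12340 to 14580 CPM elsewhere. The next marker, Cbr2, had 2476 CPM in KO5 and 2644 CPM in WT6, against 2515 to 3085 CPM elsewhere, so it was not low in WT6. Whether cell makeup had a part in the ENaC levels was not tested. Among KO3, KO4, WT2, WT3 and WT4 alone, the KO minus WT difference of mean log2 CPM was 0.18 for Scnn1a, 0.02 for Scnn1b and 0.05 for Scnn1g, and KO5 minus WT6 was 0.13, -0.30 and -0.22 for these genes.

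**Figure D4:**
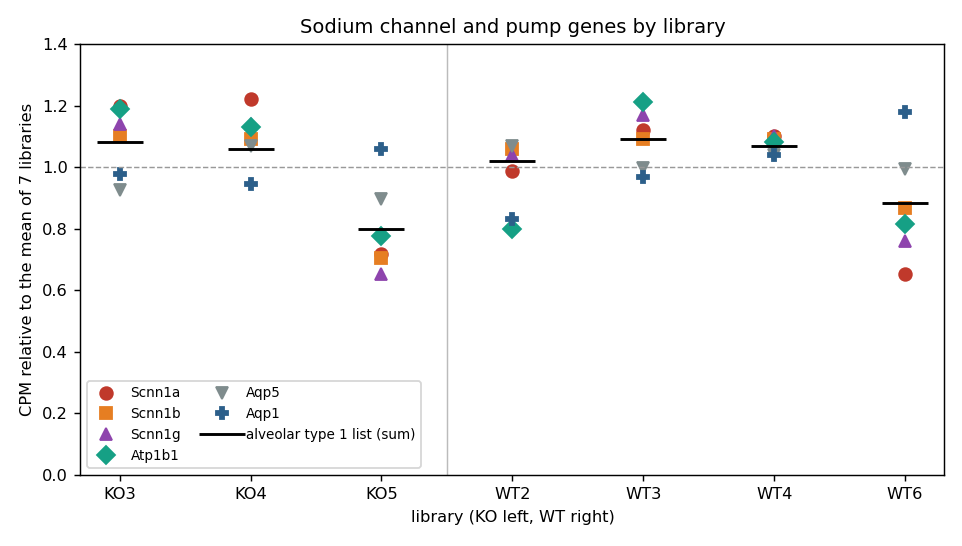
CPM of 6 genes relative to each gene's mean over the 7 libraries (dashed line at 1), with KO libraries left and WT libraries right of the vertical line; the black dash is the summed level of 11 alveolar type 1 cell markers on the same scale. The 3 ENaC subunits fall to 0.652 to 0.716 in KO5 and 0.654 to 0.866 in WT6, while Aqp1 lies at 1.06 and 1.18 there.

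Ratios between subunits within a library do not depend on how libraries are scaled. Scnn1a over Scnn1g, per exon length, was 1.75, 1.78 and 1.83 in KO3, KO4 and KO5, against 1.58, 1.6, 1.66 and 1.43 in WT2, WT3, WT4 and WT6. All KO ratios lay above all WT ratios, by 0.19 on the log2 scale (1.14-fold). The exact two-sided permutation test gave p = 0.0571, and the adjusted p over the 36 pairs of the 9 genes was 0.97. With 35 arrangements of the labels the smallest p of this test is 0.0286, so a single pair could not pass after the adjustment. The adjusted p therefore decides nothing about this pair, and the unadjusted p was not below 0.05 either. Of the 36 pairs, only this 1 had groups that did not overlap, where 3.72% of all single genes tested showed such a pattern. The share among ratios of other genes was not computed, so the count is not read as a result. Without KO5 and WT6 the log2 difference of this ratio was 0.13. Scnn1a over Scnn1b was 2.44, 2.52 and 2.28 in KO3, KO4 and KO5, against 2.09, 2.31, 2.25 and 1.69 in WT2, WT3, WT4 and WT6, with overlapping groups (exact permutation p = 0.143, adjusted p = 0.97). Scnn1g over Scnn1b averaged 1.35 ± 0.09 in KO lung (SD, n = 3) and 1.32 ± 0.11 in WT lung (SD, n = 4).

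**Figure D5:**
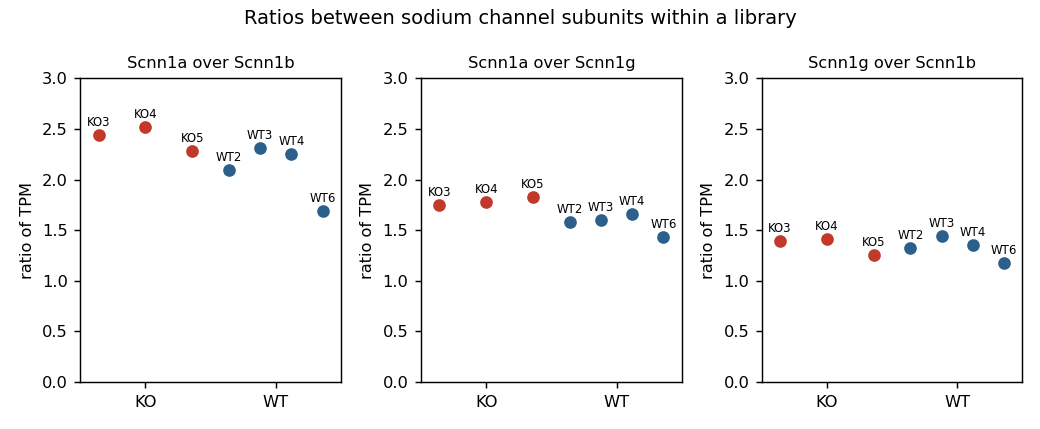
Ratio of TPM between ENaC subunits, 1 point per library, KO left and WT right, axes from 0. Scnn1a over Scnn1g is 1.75 to 1.83 in KO libraries and 1.43 to 1.66 in WT libraries, whereas the groups overlap for the other ratios.

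The sodium pump holds a beta subunit, which brings the complex to the membrane. Atp1b1 (chromosome 1, 164437109 to 164458355, minus strand), which encodes the beta 1 subunit, had 331.8, 316.4 and 216.9 CPM in KO3, KO4 and KO5, against 223.9, 338.1, 303.1 and 228.4 CPM in WT2, WT3, WT4 and WT6. Low values were found in KO5 and WT6, as for ENaC, and in WT2, where ENaC was not low. The log2 fold change was 0.08 ± 0.18 (SE), with a 95% interval of -0.33 to 0.48.

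Per exon length, Atp1b1 over Atp1b3 (beta 3) was 2.49, 2.78 and 1.53 in KO3, KO4 and KO5, against 1.58, 2.51, 2.37 and 1.48 in WT2, WT3, WT4 and WT6. The ratio was thus low in KO5, WT6 and WT2, the libraries with least Atp1b1, and the groups overlapped. The other beta subunits were lower, with Atp1b3 at 129.1 ± 15.1 TPM in KO lung (SD, n = 3) and 145.6 ± 20.7 TPM in WT lung (SD, n = 4), and Atp1b2 (beta 2) at 2.94 ± 0.12 TPM in KO lung and 3.64 ± 0.77 TPM in WT lung.

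Of the chloride transporters, Cftr (chromosome 6, 18170687 to 18322768, plus strand) had 273, 353 and 232 counts in KO3, KO4 and KO5, which were 18.5, 22.5 and 16.8 CPM, against 12.9, 19.5, 21.7 and 23.0 CPM in WT2, WT3, WT4 and WT6. The KO values lay inside the WT range. The log2 fold change was 0.0018 ± 0.19 (SE), with a 95% interval of -0.42 to 0.42. Slc9a3r1, which encodes a scaffold protein that binds Cftr, had 42.9 ± 4.44 CPM in KO lung (SD, n = 3) and 41.1 ± 4.33 CPM in WT lung (SD, n = 4).

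Slc26a4 (chromosome 12, 31519827 to 31559969, minus strand) had the largest estimate of the 9 genes and few reads. It had 78, 145 and 61 counts in KO3, KO4 and KO5, against 43, 90, 71 and 54 counts in WT2, WT3, WT4 and WT6. This was 5.27, 9.23 and 4.42 CPM in the KO libraries, against 2.59, 5.75, 5.26 and 3.80 CPM in the WT libraries. KO4 stood above all other libraries, while KO3 and KO5 lay within the WT range. The log2 fold change was 0.54 ± 0.31 (SE), with a 95% interval of -0.15 to 1.24 (unadjusted p = 0.110, adjusted p = 0.9998, edgeR), and it was 0.16 without KO4. In airway epithelium this gene is known to be induced by interleukin-13 together with goblet cell products. The summed level of 10 goblet cell markers was 272.8, 481.4 and 765.3 CPM in KO3, KO4 and KO5, against 228.1 to 330.0 CPM in WT libraries. It was highest in KO5, and KO4, the library with most Slc26a4, also lay above all WT libraries. Of these markers, the mucin Muc5ac had 4.66, 17.8 and 79.1 CPM in KO3, KO4 and KO5, against 2.81 to 4.37 CPM in WT libraries (unadjusted p = 0.0168, adjusted p = 0.9998, edgeR). Muc5ac was picked after its values were seen, so its unadjusted p is no separate test. Muc5b, the most abundant marker, had 248.2, 324.0 and 491.3 CPM in KO3, KO4 and KO5. Its WT values were 213.7 to 309.5 CPM, so the groups overlapped. Clca1, described below, gave 107.7 of the 481.4 CPM in KO4. The part of goblet cell RNA in the level of Slc26a4 was not tested.

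Further genes of fluid and ion transport were read from 6 lists that hold 114 symbols, of which 110 were in the table and 97 passed the filter on low counts. EdgeR called 0 of the 97, where 0.0353% of all genes tested were called. An unadjusted p below 0.05 was found for 2 of the 97, where 2.87% of all genes tested had one. These counts are not read as a result about the lists. The median log2 fold change was 0.02, with 59 positive and 38 negative values, where 48% of all genes tested had a positive value and their median was -0.0068. By list, the number of genes tested and their median log2 fold change were 29 and 0.08 for chloride and bicarbonate transport, 12 and 0.08 for potassium channels, and 25 and 0.01 for regulators of ENaC. They were 18 and -0.0054 for receptors and second messengers, 11 and -0.11 for other pump subunits and FXYD regulators, and 2 and 0.04 for other aquaporins.

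The genes of these lists with an unadjusted p below 0.05 were Clca1 and Ano1. Ano1, a calcium-activated chloride channel of airway epithelium and smooth muscle, had 99.4, 96.8 and 115.1 CPM in KO3, KO4 and KO5, against 120.0, 127.3, 111.5 and 140.1 CPM in WT2, WT3, WT4 and WT6 (log2 fold change -0.27, unadjusted p = 0.0329, adjusted p = 0.9998, edgeR). KO5 overlapped WT4, so the groups did not separate. Clca1, a secreted goblet cell protein that enhances calcium-activated chloride currents and is also in the goblet cell list, had 3.11, 107.7 and 116.9 CPM in KO3, KO4 and KO5, against 3.01, 1.02, 3.63 and 4.71 CPM in WT2, WT3, WT4 and WT6. KO3 lay within the WT range and the adjusted p was 0.9998 in edgeR, whereas DESeq2 called the gene higher (log2 fold change 4.61, adjusted p = 0.0137). EdgeR without KO3 also called it (5.19, adjusted p = 0.00179). That fit leaves out the only KO library within the WT range, so it is no separate support. No other alternative fit called Clca1. Best1, a calcium-activated anion channel, had 4.99 ± 0.63 CPM in KO lung (SD, n = 3) and 3.59 ± 0.82 CPM in WT lung (SD, n = 4).

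Among regulators of ENaC, Bpifa1, a secreted airway protein known to inhibit the channel, had 19.9, 12.9 and 75.0 CPM in KO3, KO4 and KO5, against 103.0, 82.2, 90.7 and 595.0 CPM in WT2, WT3, WT4 and WT6. All KO values lay below all WT values, where 3.72% of all genes tested had groups that did not overlap in either direction. Each genotype had its highest Bpifa1 value in the library of the pair that stood apart. The adjusted p was 0.9998 over all 7 libraries in edgeR (log2 fold change -2.60), 0.000373 with a term for KO5 and WT6 (-2.66) and 0.000167 among the other 5 libraries (-2.49), and DESeq2 gave it no adjusted p. KO5 and WT6 were set apart on these same data, by the leading principal component, and Bpifa1 was itself highest there within each genotype. The 2 small adjusted p-values thus rest on a split chosen from the data and are no separate test. The size of the Bpifa1 difference moved with this pair, with a log2 fold change of -1.36 without WT6 and -3.73 without KO5 (neither called). The summed level of 6 gland and airway secretory markers, of which Bpifa1 is one, was 277.0 to 575.4 CPM in KO libraries and 391.0 to 973.5 CPM in WT libraries. Bpifa1 itself gave 595.0 of the 973.5 CPM in WT6. The most abundant marker, Lyz1, had 179.0 to 250.4 CPM in KO libraries and 198.7 to 253.7 CPM in WT libraries. The median log2 fold change of the 6 markers was 0.08, so the sum does not show a fall of the list as a whole. The protease inhibitors Spint1 and Spint2, which restrain the proteases that activate ENaC, had log2 fold changes of -0.19 ± 0.11 and -0.15 ± 0.12 (SE) and did not pass.

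Potassium channels, which hold the membrane voltage that drives sodium and chloride flow, gave Kcnn4 (0.58 ± 0.31, SE), Kcnk6 (0.19 ± 0.10) and Kcnj15 (0.22 ± 0.17) as the genes with the smallest p, as log2 fold changes that did not pass. Kcnn4 was highest in KO5, at 8.25 CPM against 2.81 to 4.34 CPM elsewhere, and its log2 fold change was 0.09 without that library and 0.13 among the 5 libraries. That of Kcnj15 was 0.10 without KO4 and 0.39 without KO5. Kcnk6 had 28.8, 30.9 and 27.6 CPM in KO3, KO4 and KO5, against 25.7, 24.8, 27.2 and 24.3 CPM in WT2, WT3, WT4 and WT6. All its KO values lay above its WT values, as for Fxyd4, while those of Atp1b2 lay below. Of all genes tested, 3.72% showed such a pattern in either direction. Its share among the list genes was not computed, so it is not read as a result. Of the receptors and messengers, the adrenergic receptor Adrb1 (-0.28 ± 0.17), the cGMP-dependent kinase Prkg1 (-0.19 ± 0.10) and the phosphodiesterase Pde4d (-0.13 ± 0.09) had the smallest p. Adrb1 was highest in WT2, at 59.2 CPM against 33.0 to 39.9 CPM elsewhere, and its log2 fold change was -0.08 without that library. Fxyd4 and Fxyd3, small regulators of the pump, had 4.61 ± 0.16 and 1.88 ± 0.42 CPM in KO lung and 3.60 ± 0.28 and 1.46 ± 0.22 CPM in WT lung. Of the other aquaporins, Aqp11 had 11.1 ± 0.44 CPM in KO lung and 10.96 ± 3.03 CPM in WT lung, and Aqp3, a channel of water and glycerol, had 1.31 ± 1.44 CPM in KO lung and 1.25 ± 1.10 CPM in WT lung, with its highest values in KO5 (2.97 CPM) and WT6 (2.81 CPM).

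The 3 genes of the group with the widest range of log2 CPM over the 7 libraries were Aqp4 (1.79), Slc26a4 (1.78) and Scnn1a (0.90). Likeness to them was measured as the root mean square difference of log2 CPM over the 7 libraries, after each gene's mean was taken off. Genes picked by this rule follow the pattern of the member by choice, so their values are a description and no separate evidence. The genes closest to Scnn1a were Kcnj2, an inward-rectifying potassium channel that is also in the potassium list (0.045), Rras, a small GTPase (0.060), and Wac, an adaptor protein (0.061). Kcnj2 had 50.4, 47.5 and 29.5 CPM in KO3, KO4 and KO5, against 38.3, 44.95, 43.8 and 27.4 CPM in WT2, WT3, WT4 and WT6, low in the same libraries as Scnn1a. Closest to Aqp4 were the predicted gene Gm10369 (0.159), the kinase Mapkapk5 (0.163) and Nwd1 (0.164), and Nwd1 had 20.8 CPM in KO5 against 5.41 to 11.8 CPM elsewhere. Closest to Slc26a4 were the predicted genes Gm28856 (0.183) and Gm9392 (0.186) and the chemokine Ccl9 (0.194), which had 20.9 CPM in KO4 against 7.77 to 14.8 CPM elsewhere.

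Markers of other cells in the tissue were summed for each library. The alveolar type 2 list (10 genes) had 16910 to 21810 CPM in KO libraries and 18120 to 22460 CPM in WT libraries, and the ciliated cell list (8 genes) had 545.3 to 636.4 CPM in KO libraries and 615.8 to 743.3 CPM in WT libraries. The 6 ionocyte genes measured had 94.6 to 106.2 CPM in KO libraries and 97.3 to 110.6 CPM in WT libraries, with the proton pump subunits Atp6v0d2 (33.5 CPM in KO5) and Atp6v1c2 (42.8 CPM in KO5) as the most abundant, while the ionocyte factor Ascl3 stayed below 0.5 CPM in all libraries. In KO libraries the 6 basal cell genes had 2.10 to 8.47 CPM, against 3.45 to 9.49 CPM in WT libraries, with Krt5 below 1 CPM in all. The 8 cardiac muscle genes had 420.7 to 507.9 CPM in KO libraries and 434.1 to 944.1 CPM in WT libraries, and the 6 mesothelium genes had 214.8 to 251.9 CPM in KO libraries and 153.6 to 248.8 CPM in WT libraries. EdgeR over all 7 libraries called 0 genes of the cell type lists, while other fits called Clca1 of the goblet cell list (DESeq2 and edgeR without KO3) and Bpifa1 of the gland list (edgeR with the term for KO5 and WT6 and among the 5 libraries). Calls in those fits were not counted over the remaining genes of these lists.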

How the data were processed

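Lung RNA was measured in 3 KO and 4 WT libraries. The deposited values are raw read counts per gene. Per the submitters' processing notes, STAR, DESeq2 and build mm10 were used, with no versions or roles. The sources used here do not name the counting program, its annotation or strand use, so reads of overlapping genes cannot be told apart. Genes were compared with edgeR 4.0.16 in R 4.3.3 (filter by expression, TMM, robust quasi-likelihood fit, genotype as the only term, two-sided, Benjamini-Hochberg over all genes, threshold 0.05), after a test of the procedure on simulated counts. SE and 95% intervals derive from the F statistic. Log2 CPM used a prior count of 2. TPM used the summed exon length from GENCODE M21 (GRCm38, the same build), in which 28687 entries (99.5%) were found by symbol. Promoters came from RefSeq GRCm38.p6, which held 7 of the 9 genes. DESeq2 1.42.0 and the other alternatives are given in the closing section.

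The genes, the lists and the pair KO5 and WT6 were chosen with earlier results of these data known. Beside the 9 genes, the text names the 3 genes with the smallest p of each transport list, set pump subunits (some are not reported here) and a Cftr scaffold, the 3 genes most like each of the 3 most variable members, and the leading markers. Muc5ac, Ascl3 and Krt5 were chosen from the lists after their values were seen. Even the most similar libraries, KO3 and KO4, differed beyond sampling noise (chi-square over degrees of freedom 4.30), so none was taken as a repeat of another. In the shallowest library, the limit that a count of 0 allows (3 counts, counting error only) was 0.23 CPM.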

Additional observations from a re-analysis of the deposited data

Results flagged for a closer look

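Within the 4 WT libraries, Scnn1b had 1 value far from the others, 93.3 CPM in WT6, against 113.9 to 117.7 CPM in WT2, WT3 and WT4. The gap between WT6 and its nearest neighbour took up more of the group's range than Dixon's 95% limit for 4 values allows. The test was run for 9 genes and flags about 1 group in 20 by chance. WT6 also had the lowest WT values of Scnn1a (247.7 CPM) and Scnn1g (125.2 CPM), which did not pass this limit. Groups of 3, such as the KO libraries, were not tested.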

How the results depend on the processing

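None of these alternatives called any of the 9 genes: library totals in place of TMM, no count filter, DESeq2, leaving out each library, a replicate block, a term for KO5 and WT6, and the 5 libraries without this pair. An unadjusted p below 0.05 was found for 2 of the 9 genes without KO5, 1 with the block and 1 among the 5 libraries. The share of all tested genes with such a p is not given for these refits (2.87% in the main fit). These counts are therefore not read as a result about the 9 genes. Of the recomputed log2 fold changes of these genes, 94 kept their sign and 23 did not; those of Aqp5 and Slc26a4 kept it throughout (-0.17 to -0.02 and 0.16 to 0.75). Leaving out each library in turn gave ranges that cross 0 for Aqp1 (-0.096 to 0.071), Aqp4 (-0.72 to 0.31), Scnn1a (-0.030 to 0.332), Scnn1b (-0.197 to 0.098), Scnn1g (-0.184 to 0.171), Cftr (-0.151 to 0.100), Atp1b1 (-0.038 to 0.250), Slc9a3r1 (-0.028 to 0.107), Aqp3 (-1.317 to 0.828) and Aqp11 (-0.081 to 0.206). With library totals Aqp1 was at 0.00031 and Aqp4 at 0.029. Among the 5 libraries Aqp1 was at 0.024, Scnn1b at 0.024, Scnn1g at 0.053 and Aqp3 at -0.555, and Aqp3 was at -0.254 with the term for the pair.

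The number of genes called over the whole table was 3 to 41 when each library was left out, 60 with DESeq2, 29 with the term for KO5 and WT6 and 14 among the 5 libraries. For the other transport genes the count of 0 became 0 to 1 when each library was left out (Clca1, without KO3), 1 with DESeq2 (Clca1), 1 with the term and 1 among the 5 libraries (Bpifa1 in both). The cause was not tested. Numbers 3 and 4 occur in both genotypes, but the deviations of same-numbered libraries correlated no better (0.236 and 0.201) than those of different numbers (0.236 and 0.221), so the numbers were not taken as pairs. With a replicate block in these 4 libraries, 74 genes were called over the table and 1 among the other transport genes (Bpifa1), with Scnn1b at 0.013, Scnn1g at 0.016, Cftr at -0.0052 and Slc9a3r1 at -0.011. The block leaves 1 degree of freedom. Genes with few reads, such as Slc26a4 (43 to 145 counts) and Aqp4 (85 to 262 counts), had the widest intervals.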
